A study of Lolium perenne with 10 samples.

Results

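In leaves of perennial ryegrass (Lolium perenne), a cool-season pasture and lawn grass, 150 genes formed a module that stood high after drought and in one of the temperature groups, called title-heat here, and near the control level after submergence and in the other temperature group, called title-cold. They were chosen by their measured levels. Of 46394 genes in the deposited count table, 21817 had at least 10 counts in both libraries of control, drought, title-cold or title-heat. For these, the mean of log2(CPM + 1) in each group was set against control. CPM is the count of a gene scaled to the summed counts of these kept genes in the library, after TMM correction of library sizes. A difference of at least 1 was required in drought and in title-heat, and a difference smaller than 1 in size in submergence and title-cold. This was met by 646 genes, 2.96% of those kept, and the 150 with the largest value of the smaller of the drought and title-heat differences were taken and ranked by it. The comparisons with control are therefore a description of how the genes were picked and support nothing.

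The study had 10 RNA-seq libraries of wild-type leaf, 2 for each of 5 groups, with 30 seedlings in a library, and it asked how this grass responds to abiotic stress. Control seedlings were untreated, and all plants were raised under 16 h of light, with days at 22 °C and nights at 18 °C. Drought meant 7 days without water from day 7, and the temperature treatments were 12 h at 4 °C or at 42 °C on day 14, while no source used here states how long submergence lasted or how old control and submerged seedlings were. The labels contradict each other on which group got which temperature. Title-heat is the pair of libraries with heat in the title and cold in the treatment field, and title-cold has the opposite labels, so neither is given a temperature. Another protocol field, which speaks of Arabidopsis, gives 6 h at 4 °C, drought for 2 weeks from day 14 and 5 days of recovery, and whether it applies to these plants was not tested. Control seedlings may differ from treated ones in age as well as in treatment, and these cannot be told apart. Libraries of one group differed from each other by more than sampling noise (chi-square 7.05 or more for each degree of freedom). The labels do not say that they were grown apart, so the spread behind each p-value may be partly technical.

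As background, drought, heat and cold can all leave leaf cells short of usable water or damage their proteins and membranes, and plants answer them in part with the same tools. Abscisic acid, the hormone that closes stomata, accumulates in drying leaves and switches on genes for dehydrins and other late embryogenesis abundant proteins. Heat acts through heat shock factors and chaperones, cold through the CBF group of transcription factors, and both programmes overlap with the drought response. None of these names can be attached to a gene here. The identifiers are those of assembled sequence clusters, the table pairs none with a name, and a search of the Kyuss_2.0 gene table from RefSeq, with 56406 entries, found 0 of the 150 members. Members are therefore called by their rank, the labelled tissue could not be checked against marker genes, and no sequence is shown.

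Total counts per library were 10847727 to 12605087. The kept genes, to which CPM was scaled, held 94.9% and 95.3% of them under submergence and 99.5% to 99.8% in the other libraries. Submergence was not among the groups that the filter of the rule used. The TMM factors differed by group, from 0.7534 to 0.9082 in control, drought and title-heat and from 1.248 to 1.403 in submergence and title-cold, so 1 count stood for a higher CPM in the first 3 groups. In control the members were low, with a median of 1.91 and 1.57 CPM in the libraries. The medians were 26.9 and 37.9 CPM under drought and 32.9 and 28.4 CPM in title-heat, against 1.72 and 2.39 CPM under submergence and 1.25 and 1.37 CPM in title-cold. The median over all kept genes was 5.83 to 7.11 CPM in every library. The member median lay below it in 6 libraries and well above it in the 4 libraries of drought and title-heat. The rule asked for high levels in these 4 and not in the others, so this describes the choice. In whole leaves, more transcript per cell and more cells that make it cannot be told apart.

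**Figure D1:**
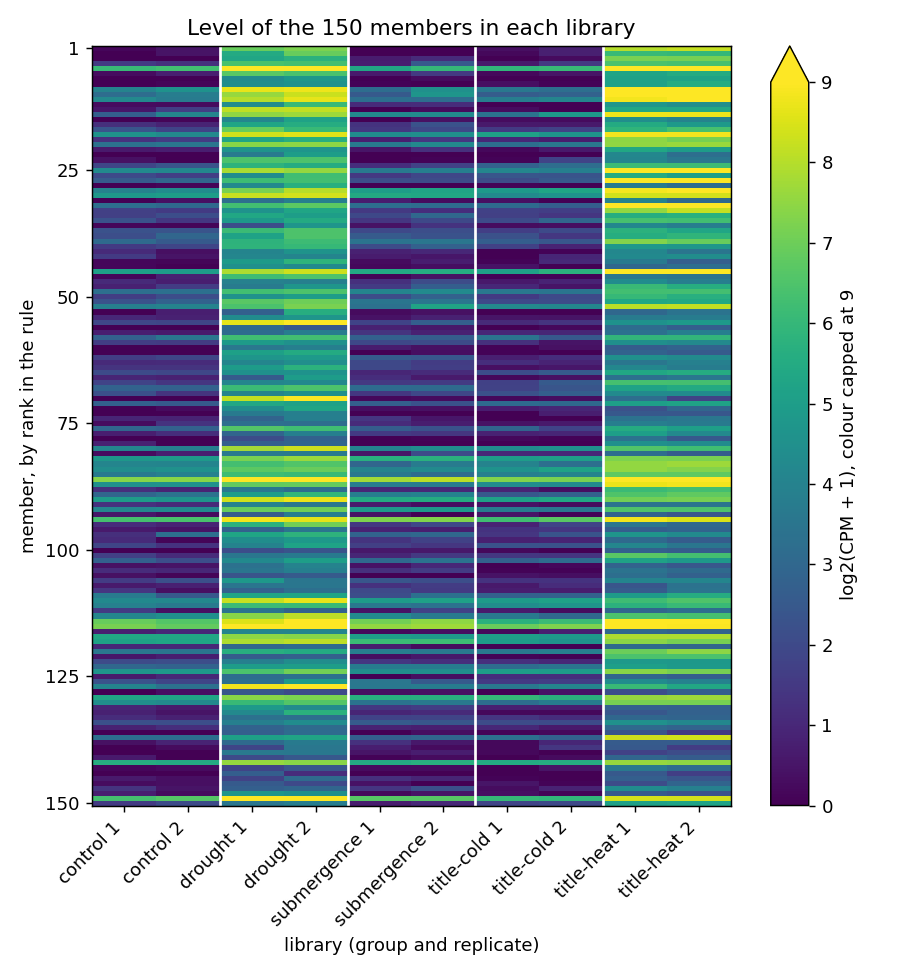
Heat map of the 150 members, one row each in order of rank, over the 10 libraries in columns; colour gives log2(CPM + 1) and is capped at 9. The 4 columns of drought and title-heat stand above the other 6 in 149 rows. Colour is not scaled by row, so some rows are bright in all columns and some dark in all. Drought replicate 2 is brighter than replicate 1 in many rows.

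Control levels of the members spanned a wide range. In 61 of them (40.7%) the control mean was below 1 CPM, against 16.8% of all kept genes, and 13 had 0 counts in both control libraries. The control level entered both the filter and the rule, which favours genes low in control, so nothing is read from these shares. A further 54 lay from 1 to 10 CPM, 32 from 10 to 100 CPM and 3 at 100 CPM or more, with a highest control mean of 165 CPM. Mean levels ran from 3.36 to 2210 CPM under drought and from 2.84 to 4330 CPM in title-heat. Among the 137 members with reads in control, the median ratio of group means was 13.1 for drought over control and 14.1 for title-heat over control, and the smallest ratios were 3.87 and 3.77. For the 13 without control reads only a bound can be given, against the level that 3 counts per library would have had. It was at least 10.7-fold to at least 1280-fold higher under drought and at least 9-fold to at least 455-fold higher in title-heat.

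The member ranked first, c158864.graph_c1, was close to absent outside the groups that chose it. It had 0.112 and 0.392 CPM in control, 120 and 148 CPM under drought and 256 and 294 CPM in title-heat. Under submergence it had 0 counts in both libraries, and in title-cold it had 0.293 and 0.738 CPM, or 4 and 11 counts. The ratio of mean levels to control was 532 for drought and 1090 for title-heat, on a control level that rests on 1 and 4 counts. The drought and title-heat libraries lay far above the other 6 and did not overlap with each other.

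The second, c146620.graph_c0, showed how uneven replicates could be within drought. It had 43.9 CPM in drought replicate 1 and 118 CPM in replicate 2, beside 66 and 62.3 CPM in title-heat. Control held 0 and 4 counts, submergence 0 in both libraries and title-cold 2 and 11 counts. The title-heat values lay between the drought values, so these groups overlapped for this gene.

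The members of rank 3 to 5 started from different control levels. Rank 3 had 0 counts in both control libraries, 39 and 53 CPM under drought and 146 and 140 CPM in title-heat. Rank 4 had 1.91 and 1.37 CPM in control, 84.3 and 77.9 CPM under drought and 86.8 and 83 CPM in title-heat, which makes it nearly level between the groups that chose it. Rank 5 was already abundant in control, at 67.9 and 76.1 CPM, and stood at 1810 and 2620 CPM under drought and 3970 and 4690 CPM in title-heat. Its levels of 40.7 and 62.2 CPM under submergence and 60.3 and 65.9 CPM in title-cold were all below both control values, and neither group was called.

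At the edge of the rule the choice was a fine one. Rank 150 had a smaller difference of 1.903, on the log2(CPM + 1) scale, and the first gene left out had 1.901. In all, 438 kept genes reached the smaller difference of rank 150, and 288 of them were not members because submergence or title-cold moved by 1 or more, 30 of these by less than 1.2. Of the 288, 188 were at least 1 higher under submergence and 79 at least 1 higher in title-cold, while 37 and 56 were at least 1 lower. A gene can stand in several of these counts. The shares of all kept genes beyond 1 were not taken. By the edgeR test, 32.2% of all tested genes were called higher and 17.1% lower under submergence, and 11.1% and 12.2% in title-cold. Nothing is read from the directions. Members are thus the part of a larger set of genes high in drought and title-heat for which the other groups lay within 1 of control.

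Against control, the edgeR quasi-likelihood test over 27571 genes called 149 members higher under drought, where 15.2% of all tested genes were called higher, and 148 higher in title-heat, where 12.3% were. All 150 members passed the filter of that test. These comparisons chose the members, so nothing is read from the counts. The exceptions were rank 97, not called in title-heat (adjusted p = 0.0629, edgeR), and rank 112, called in neither (adjusted p = 0.0527 for drought and 0.0713 for title-heat, edgeR). In both, control replicates were far apart, at 1.35 and 8.82 CPM for rank 97 and 1.91 and 0.294 CPM for rank 112.

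The word only in a description of these genes rests on the differences between the groups themselves. Called higher were 148 members in drought against submergence (background 21.7%), 149 in drought against title-cold (21.5%), 148 in title-heat against submergence (20.9%) and 149 in title-heat against title-cold (19.6%). In all 4 of these comparisons 147 members were called higher, and 8.1% of tested genes were. Both drought and both title-heat libraries lay above all 6 other libraries in 149 members, and in 9.24% of kept genes. The exception was rank 126, with 8.94 CPM in drought replicate 1 below its 10.8 CPM in submergence replicate 1. The rule used these group means, so the counts describe the choice.

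Lying within 1 of control did not mean that every member was level there. Under submergence 22 members were called higher than control (14.7%, against 32.2% of tested genes) and 16 lower (10.7%, against 17.1%). In title-cold 7 were called higher (4.67%, against 11.1%) and 16 lower (10.7%, against 12.2%). In all, 51 members (34%) were called in submergence or title-cold, against 57.4% of tested genes. Another 97 (64.7%) were called higher in drought and title-heat and not called in the other groups, against 1.72%. The rule limited these differences, and a gene that was not called is not shown to be unchanged. The directions depended on scaling. Scaled by total counts instead of TMM, the calls were 55 higher and 5 lower under submergence and 28 higher and 6 lower in title-cold, and upper-quartile factors gave 15 higher and 24 lower under submergence. Total counts shift the median gene by 0.63 under submergence and 0.55 in title-cold on the log2 scale. The counts also moved with single libraries. Without control replicate 2 the calls were 10 higher and 8 lower under submergence and 1 higher and 6 lower in title-cold. Without control replicate 1, 9 were lower under submergence, and 1 was higher and 10 lower in title-cold. Higher calls under submergence were 12 without submergence replicate 2, lower calls were 8 without submergence replicate 1, and title-cold had 2 higher and 8 lower without title-cold replicate 2.

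Some of these calls were on members with few reads. Because 1 is added to the CPM in the rule, a gene near 0 can change several-fold and still lie within 1 of control. Rank 74 went from 8 and 9 counts in control to 0 in both title-cold libraries (adjusted p = 0.0123, edgeR). Rank 121 went from 4 and 7 counts in control to 1 and 0 in title-cold (adjusted p = 0.00664, edgeR). Rank 3 had 9 and 18 counts under submergence where control had 0 (adjusted p = 0.00539, edgeR). Of the 51 members called in submergence or title-cold, 35 had a control mean of 1 CPM or more, as 89 of the 150 members did. Rank 150 was one of these, at 1.91 and 3.04 CPM in control and 0.62 and 1.02 CPM under submergence (adjusted p = 0.00451, edgeR).

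Title-heat against drought is a comparison that the rule left free in direction, since it asked the same of both groups. The members did not lean to one side in number. Of 150, 29 were called higher in title-heat (19.3%, against 10.9% of tested genes) and 29 were called higher in drought (19.3%, against 11.3%). The other 92 were not called. The median log2 difference was -0.01, against 0 over all tested genes, and single members ran from -6.22 to 4.37. The size of the fitted difference was below 1 on the log2 scale in 83 members (55.3%), against 64.6% of tested genes, and at least 2 in 26. Of the 496 genes that met the rule at lower ranks, 46 were called higher in title-heat and 104 lower. Both levels entered the rule, and members were ranked by the smaller difference. No p-value is therefore given over the list, and nothing is read from shares above the background. Genes with more reads are called more easily, and its part in these shares was not tested.

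**Figure D2:**
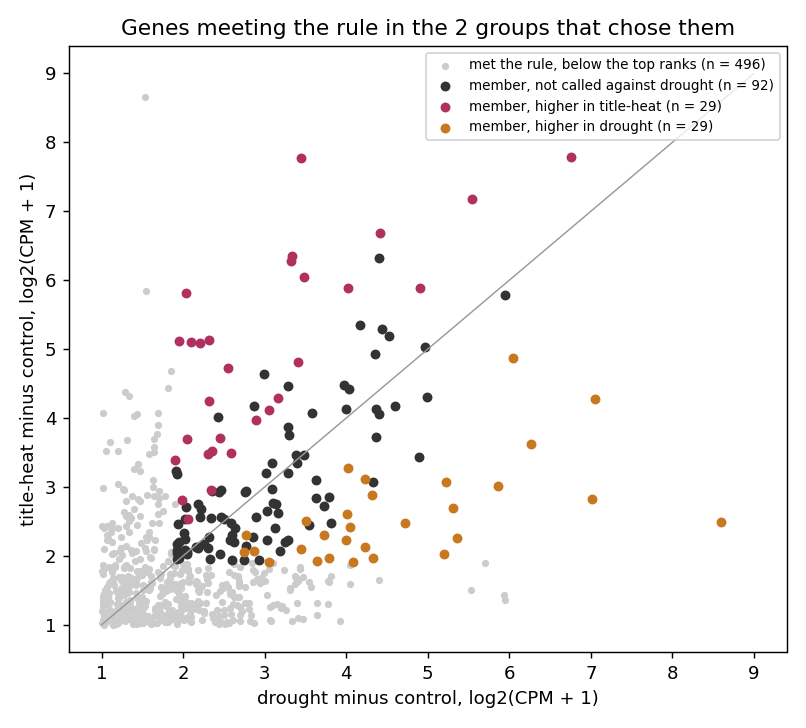
Scatter plot of the 646 genes that met the rule, with the difference from control in log2(CPM + 1) under drought on the horizontal axis and in title-heat on the vertical axis. Grey points are the 496 genes below the top ranks, coloured points are members by their edgeR call in title-heat against drought, and the line marks equal differences. The 29 members called higher in title-heat lie above the line and the 29 called higher in drought below it.

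The even split depended on which libraries were present. Without drought replicate 1 the calls were 19 higher and 27 lower in title-heat, and without drought replicate 2 they were 26 higher and 16 lower. Leaving out title-heat replicate 1 gave 17 higher and 18 lower, and leaving out replicate 2 gave 18 and 14. Total counts shift the median gene by -0.15 in this comparison and gave 23 higher and 31 lower.

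The members with the largest called excess in title-heat were ranks 27, 121 and 137. Rank 27 had 72 and 76.3 CPM under drought and 1260 and 1790 CPM in title-heat, a ratio of 20.6 (adjusted p = 9.13e-06, edgeR). Control stood at 5.04 and 6.86 CPM, so it was high in both groups and highest in title-heat. Rank 121 had 5.2 and 5.65 CPM under drought and 86.8 and 86.5 CPM in title-heat, a ratio of 16 (adjusted p = 1.96e-05, edgeR). Rank 137 had 33.3 and 37.6 CPM under drought and 318 and 339 CPM in title-heat, a ratio of 9.26 (adjusted p = 1.3e-05, edgeR). The drought and title-heat libraries did not overlap in any of these 3, and in ranks 121 and 137 the replicates of each group lay close together.

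The largest called excess in drought was in ranks 70, 55 and 95. Rank 70 had no reads in control, 288 and 517 CPM under drought and 8.22 and 2.42 CPM in title-heat (ratio of title-heat to drought 0.0132, adjusted p = 0.000325, edgeR). Its title-heat level rests on 75 and 20 counts, and the rest of the libraries held 0 to 4 counts each. Rank 55 had 406 and 571 CPM under drought and 22.9 and 28.1 CPM in title-heat, beside 2.8 and 2.64 CPM in control (ratio 0.0523, adjusted p = 4.9e-05, edgeR). Rank 95 had 52.3 and 132 CPM under drought and 10.6 and 7.25 CPM in title-heat, beside 1.23 and 0.882 CPM in control (ratio 0.097, adjusted p = 0.0029, edgeR). The drought replicates of ranks 70 and 95 were well apart, and both still lay above title-heat.

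**Figure D3:**
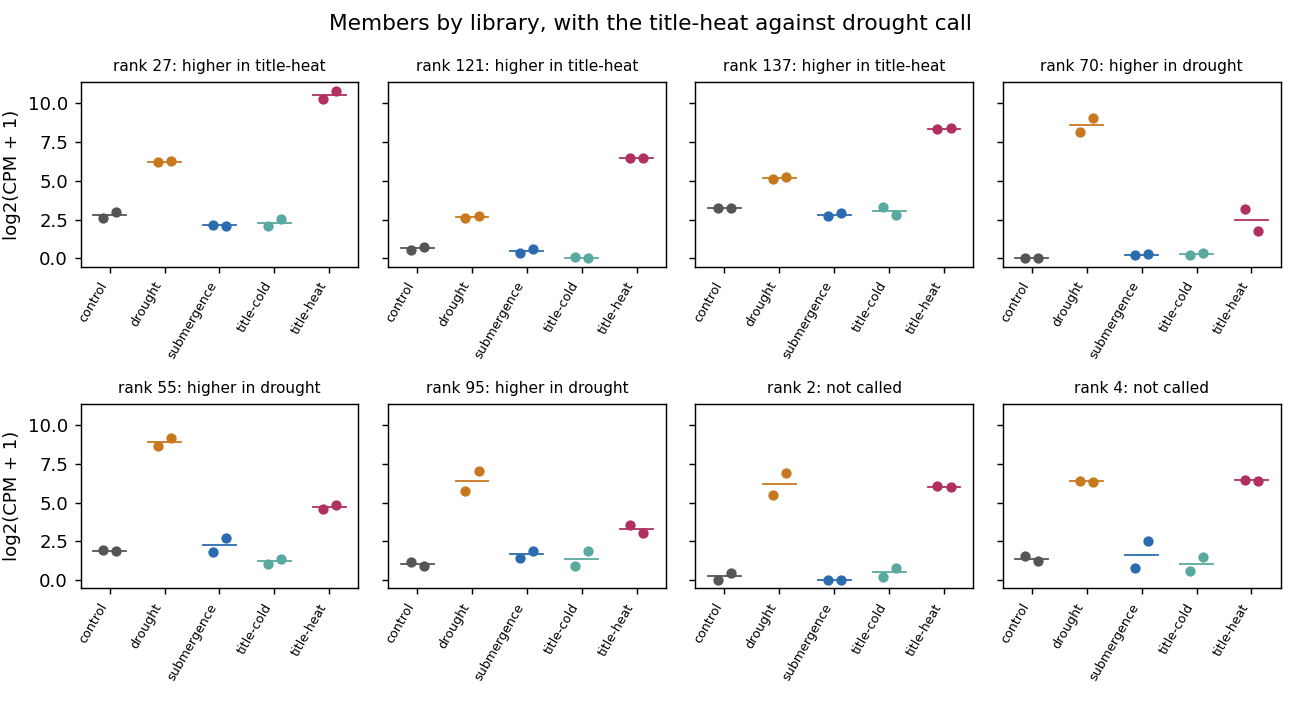
Levels of 8 members in each library, in log2(CPM + 1), with the 2 libraries of a group as points and their mean as a line. Ranks 27, 121 and 137 are highest in title-heat, ranks 70, 55 and 95 highest in drought, and ranks 2 and 4 were not called between these groups.

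The sets that leaned one way differed in control level. The 29 members called higher in title-heat had a median control mean of 8.04 CPM, those called higher in drought 1.57 CPM, and the 92 not called 1.02 CPM. Medians of the group means were 63.2 CPM under drought and 159 CPM in title-heat for the first set, and 92.1 and 27.2 CPM for the second. Under submergence the median difference from control, on the log2(CPM + 1) scale, was -0.27 in the first set and 0.35 in the second, and in title-cold it was -0.19 and -0.18. Genes with more reads are called more easily, and its part in these medians was not tested.

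In summed level title-heat stood above drought, unlike in the number of calls. Members together held 0.129 ± 0.00822% of all counts in control, 1.42 ± 0.254% under drought and 2.08 ± 0.0403% in title-heat (SD, n = 2 each). Submergence had 0.245 ± 0.0136% and title-cold 0.182 ± 0.0173%. The summed CPM was 14631 and 18425 under drought and 25650 and 27999 in title-heat, with no overlap between these groups. A few members carried much of that gap. The 3 most abundant, ranks 5, 114 and 9, were all called higher in title-heat than in drought and held 37% and 38.2% of the members' CPM in title-heat, against 17.7% and 19.7% under drought. Without them the sums were 12037 and 14794 under drought and 16147 and 17315 in title-heat.

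**Figure D4:**
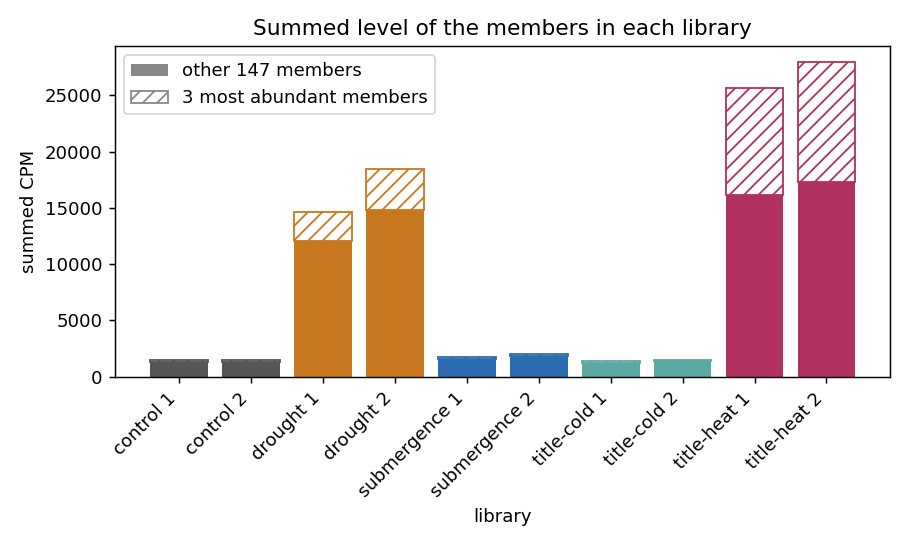
Bars of the summed CPM of the members in each of the 10 libraries, split into the 3 most abundant members (hatched) and the other 147 (solid). Control, submergence and title-cold bars stay near 1369 to 2045, drought reaches 14631 and 18425, and title-heat 25650 and 27999.

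Rank 114 showed the largest part of this excess. It stood at 120 and 95.6 CPM in control, 371 and 577 CPM under drought and 3680 and 3720 CPM in title-heat, a ratio of title-heat to drought of 7.81 (adjusted p = 9.2e-05, edgeR). Under submergence it had 133 and 175 CPM and in title-cold 53.1 and 68.8 CPM, below both controls (adjusted p = 0.0415 against control, edgeR). Rank 9 had 15.4 and 23.3 CPM in control, 414 and 433 CPM under drought and 1850 and 2280 CPM in title-heat, a ratio of 4.87 (adjusted p = 0.00345, edgeR). For rank 5 the ratio was 1.96 (adjusted p = 0.0184, edgeR).

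The drought libraries differed in how high the module stood. Replicate 2 was above replicate 1 in 115 members (76.7%), against 48.5% of all kept genes, and the median gap was 0.29 on the log2(CPM + 1) scale, against 0 over kept genes. In title-heat replicate 2 was the higher one in 65 members (43.3%), against 49.9% of all kept genes. The median gap there was -0.04, against 0 over kept genes. The gap between drought replicates exceeded 1 in 20 members. For title-heat replicates this held in 2 members, for title-cold in 4, for control in 8 and for submergence in 10. How many of all kept genes had such gaps was not counted. Among genes at 10 CPM or more under drought, the median size of the gap was 0.36 in 124 members and 0.22 in 8997 kept genes. With the same cut in the other groups, members also had the wider gap in title-heat (0.22 against 0.16) and title-cold (0.26 against 0.2). They had the narrower gap in control (0.15 against 0.18) and under submergence (0.16 against 0.19). The largest gaps were also in drought. Rank 53 had 5.72 and 47.2 CPM there and 7.12 and 9.78 CPM in title-heat, and rank 36 had 3.43 and 25.1 CPM there and 17.1 and 13.3 CPM in title-heat. The rule used the drought mean, which 1 high library can raise, and its part in these gaps was not tested.

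Title-cold against submergence was the other comparison with a free direction. In title-cold 17 members were called higher than under submergence (11.3%, against 17.4% of tested genes) and 42 lower (28%, against 31.3%). The rule limits both groups, so nothing is read from shares below the background. The median log2 difference was -0.38 in the members and -0.16 over all tested genes. Without submergence replicate 2 the calls were 10 higher and 22 lower, without title-cold replicate 2 they were 11 higher and 26 lower, and without submergence replicate 1 there were 10 higher. The members with the largest fitted differences had very few reads. Ranks 12 and 74 had 17 and 19 counts and 24 and 7 counts under submergence and 0 in both title-cold libraries, at least 5.65-fold and 4.98-fold higher under submergence (adjusted p = 0.00659 and 0.00395, edgeR). Rank 1 went the other way, from 0 counts under submergence to 4 and 11 in title-cold, at least 2.59-fold higher (adjusted p = 0.00386, edgeR). Rank 23 had 1 and 38 counts in title-cold and 0 and 1 under submergence (adjusted p = 0.0394, edgeR), and without title-cold replicate 2, which holds nearly all its title-cold reads, it was no longer called (adjusted p = 0.7, edgeR). Over its 11 alternatives the adjusted p ran from 2.88e-11, in the fit with no filter, to 0.7, and 5 of them lost the call.

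Identifiers link some members to other clusters. An identifier has a stem and a last number, and some clusters share a stem. What a shared stem means in this assembly is not stated in the labels, and whether such clusters are parts of one gene, alleles or close copies that share reads was not tested. The members had 148 different stems, and 2 stems were held by 2 members each. Outside the module, 45 members had in all 55 stem mates, of which 43 were kept by the filter of the rule. Of these mates, 22 were called higher under drought and 2 lower, and 22 were called higher in title-heat and 0 lower (edgeR), where 15.2% and 12.3% of all tested genes were called higher. Under submergence 6 of the 43 mates were called higher and 8 lower (edgeR), where 32.2% and 17.1% of all tested genes were. In title-cold 2 were called higher and 7 lower (edgeR), where 11.1% and 12.2% of all tested genes were. Nothing is read from these counts. Their median difference from control was 1.18 under drought and 0.82 in title-heat on the log2(CPM + 1) scale, against -0.04 and 0 over all kept genes. Under submergence and in title-cold the medians were 0.15 and 0.03, with differences of 1 or more in size in 11 and 6 mates.

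**Figure D5:**
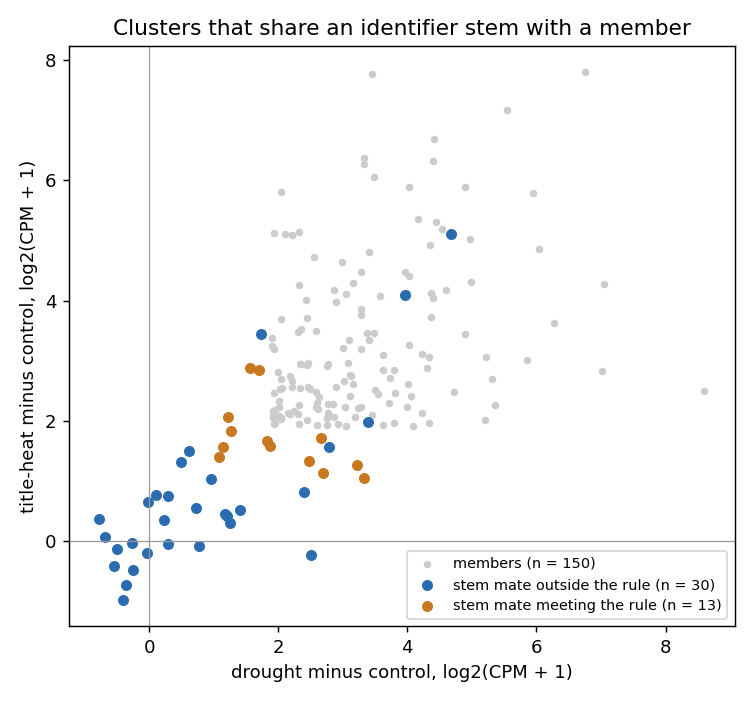
Scatter plot of the 43 kept stem mates (coloured) and the 150 members (grey), with the difference from control in log2(CPM + 1) under drought and in title-heat on the axes. Orange marks the 13 mates that met the rule at lower rank, and the other 30 run from -0.77 to 4.68 under drought and from -0.97 to 5.11 in title-heat.

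Mates did not always follow their member. Both differences reached 1 in 18 of the 43 (41.9%), against 6.87% of all kept genes. The whole rule was met at a lower rank by 13 of the 43 mates, where 2.96% of all kept genes met it. The mate of rank 74 was 4.68 higher under drought and 5.11 higher in title-heat, beyond its member, and fell outside the rule because title-cold was 1.07 higher. The mate of rank 1 differed by 0.29 under drought and -0.05 in title-heat, where its member had 6.76 and 7.79. In 13 mates at least one of these differences was below 0, and none was at -1 or less.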

How the data were processed

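The authors deposited 1 table of whole-number read counts for 46394 assembled clusters in 10 libraries, with 0 counts columns left unmatched to a sample. Per the submitters' processing notes, RSEM and DESeq 1.10.1 were used, without saying for what, and no source used here names the aligner or the assembly. If RSEM made the counts, reads shared by similar sequences were split between them. The table's name also speaks of bermudagrass and cold, and whether the counts belong to another experiment was not tested.

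Counts were analysed in R 4.3.3. CPM used TMM factors on the 21817 rows kept by the rule. Tests used edgeR 4.0.16 (filterByExpr at 10 counts and a total of 15, TMM, robust quasi-likelihood fit, 1 coefficient per group, all 10 libraries, 5 residual degrees of freedom), with Benjamini-Hochberg adjustment over 27571 genes and calls at 0.05, and the code was tested on simulated data. The common dispersion was 0.0899. DESeq2 1.42.0, other scalings, filters, pseudocounts and left-out libraries were alternatives. Total counts per library of 10847727 to 12605087 set the precision, and a count of 0 allows up to 3 counts, for counting error only. Members, lists and tests were chosen with earlier results of these data known. Members named are the top 5 and last rank, the 3 most abundant, the 3 and 2 with the largest called differences each way in title-heat against drought and title-cold against submergence, and the 2 with the widest replicate gap. Ranks 97, 112 and 126 and the stem mates of ranks 1 and 74 were added after their values were seen.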

Additional observations from a re-analysis of the deposited data

How the results depend on the processing

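Of 150 members, 101 to 146 were again among the top ranks with other scalings, no filter, a pseudocount of 0.5 or thresholds of 0.8 and 1.2, and 123 to 141 with a library left out. A pseudocount of 5 returned 82. Genes meeting the rule numbered 646, and 417 with total counts and 409 with a pseudocount of 5. Calls in title-heat against drought were 17 to 26 higher and 14 to 27 lower with a library left out, and those in title-cold against submergence 10 to 16 and 22 to 40. Only the groups compared in the fit gave 9 and 27 for the latter. Against control, submergence calls were 10 to 26 higher and 8 to 11 lower with a library left out, 55 and 5 with total counts and 12 and 8 with only the groups compared, and 39 higher with no filter. Title-cold calls were 1 to 9 higher and 6 to 13 lower with a library left out, 28 and 6 with total counts, 13 and 30 with no filter and 2 and 5 with only the groups compared. With no filter the median prior degrees of freedom were infinite, against 4.1 with the filter, so that fit takes the spread as known and its p-values are far smaller. A group left with 1 library was assumed to vary like the others. Calls of members in the other comparisons stayed within 1.5 times under every alternative run, and the cause of the moves was not tested.

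Same-numbered libraries were not tied to each other: the correlation of their deviations across genes was -0.02 for title-heat and drought and -0.02 to 0.05 over all pairs of groups. With the replicate block, 29 members were called higher and 25 lower in title-heat against drought. The low counts of many members outside drought and title-heat limit what can be said of submergence and title-cold.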

Other observations

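The 496 genes that met the rule below the top ranks had a median difference from control of 1.63 under drought and 1.49 in title-heat on the log2(CPM + 1) scale, and a median control mean of 2.16 CPM. In title-heat against drought 46 of them were called higher and 104 lower by edgeR's quasi-likelihood test, 30.2% in all. Over all tested genes 10.9% were called higher and 11.3% lower. Of the members 38.7% were called, with as many higher as lower when all libraries were used. The members were ranked by the smaller of the drought and title-heat differences, and its part in this contrast was not tested.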
